A study of Homo sapiens with 4 samples.

Results

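The genes described here carry a LINC number, the systematic name given to a long intergenic noncoding RNA, and were detected in both cell lines of the study. The members were selected on brightness: every array gene named LINC plus a number, read at its probe of highest mean log2 signal, was kept if that probe was well above background on all 4 arrays. Of 836 LINC genes on the array, read by 1652 probes, 225 met this rule (26.9%). The levels chose the members and are therefore a description. No difference between samples was used directly, but the rule leaves out LINC genes that fell below detection on any array. Large differences of dim LINC genes can therefore be missing from the members.

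RNA came from HCT116, a human colorectal cancer cell line, and A549, a human lung cancer cell line. Each line was transfected, with the reagent Dharmafect1, either with the microRNA miR-891b or with NC1, labelled as the negative control. Each of the 4 combinations was measured once, from 100 ng of total RNA on a 1-colour Agilent array, so differences within a line had no replicate check. The labels do not give the time after transfection or say that any sample was repeated. The HCT116 arrays shared one slide and scan, and the A549 arrays shared another, so cell line and slide cannot be told apart.

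Long noncoding RNAs are transcribed by RNA polymerase II, often spliced and polyadenylated, and carry no long open reading frame. Many are made in few cell types, and many are kept low by the nuclear exosome, the complex that degrades unstable nuclear transcripts. Some act on neighbouring genes, some bind proteins or microRNAs, and a few have later been found to encode small proteins. MicroRNAs repress RNAs that pair with their seed, and they usually act through sites in messenger RNAs.

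The sequences that follow are those the results turn on. The mature miR-891b, from RefSeq, is shown with its seed (bases 2 to 8) in capitals. The array probes are shown in the strand of the transcript, with AATAAA, the commonest polyadenylation signal, in capitals where the probe holds it. Probe positions are those of the array files (hg19), and each of these probes is 60 bases long.
hsa-miR-891b: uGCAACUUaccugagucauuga
LINC01405, chr12:111375193-111375252, plus strand: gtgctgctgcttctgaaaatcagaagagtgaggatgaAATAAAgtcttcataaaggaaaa
LINC01315, chr22:42760567-42760626, minus strand: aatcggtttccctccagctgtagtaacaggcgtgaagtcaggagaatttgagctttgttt
LINC00460, chr13:107030039-107030098, plus strand: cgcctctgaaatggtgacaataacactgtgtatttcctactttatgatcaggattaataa
LINC01540, chr18:3478866-3478925, plus strand: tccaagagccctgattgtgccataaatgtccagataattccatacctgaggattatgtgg
LINC01021, chr5:27485707-27485766, plus strand: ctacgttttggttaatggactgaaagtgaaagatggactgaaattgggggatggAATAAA
LINC00842, chr10:47151119-47151178, minus strand: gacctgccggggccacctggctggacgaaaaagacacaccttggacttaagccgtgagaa
LINC00592, chr12:52617464-52617523, plus strand: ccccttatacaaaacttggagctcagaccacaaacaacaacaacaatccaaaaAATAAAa
LINC01356, chr1:113392302-113392361, minus strand: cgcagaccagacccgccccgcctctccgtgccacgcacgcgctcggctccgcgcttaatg
The first 3 lincRNA probes belong to members brighter in HCT116 and the next 3 to members brighter in A549. LINC00592 was the member furthest below its control in A549, and LINC01356 had the highest level.

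AATAAA, searched on the probe strand only, was in 12.4% of the 225 member probes, against 14.7% of the probes of the other 611 LINC genes and 8.35% of those of all 18065 genes detected on all 4 arrays. The sequence complementary to the miR-891b seed, AAGTTGC, was in 1 member probe, that of LINC01588. The shorter AGTTGC was in 3 member probes (1.33%), those of LINC00493, LINC00877 and LINC01588, against 1.21% over all genes detected. The match is in capitals in the LINC01588 probe and in a short stretch of the LINC00493 probe.
LINC01588, chr14:50466652-50466711, minus strand: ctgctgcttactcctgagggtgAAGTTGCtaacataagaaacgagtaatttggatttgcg
LINC00493, chr20:18550098-18550118, plus strand: gatAGTTGCcctgattcccat
A probe covers only a small part of a transcript, so the rest of each RNA was not searched. The changes with miR-891b, as log2 miR-891b minus NC1, were -0.34 in HCT116 and -0.44 in A549 for LINC01588. They were -0.33 and -1.11 for LINC00493, and -0.50 and 0.03 for LINC00877.

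The LINC genes differed in the arrays that detected them. No array showed 436 of the 836 (52.2%) well above background. Both A549 arrays but neither HCT116 array showed 49 (5.86%), and both HCT116 arrays but neither A549 array showed 14 (1.67%). By array, 283 (NC1) and 270 (miR-891b) LINC genes were well above background in HCT116, and 327 and 324 in A549. The A549 arrays were also brighter in general. The 75th percentile of their gene signals was 74.8 and 74.2, against 54.9 and 57.0 on the HCT116 arrays, and 50.1% and 50.3% of probes were well above background, against 46.0% and 44.7%. The part of this in the larger A549 count was not tested. The counts by line are not given here for all gene names, so they do not set LINC genes apart from other genes.

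**Figure D1:**
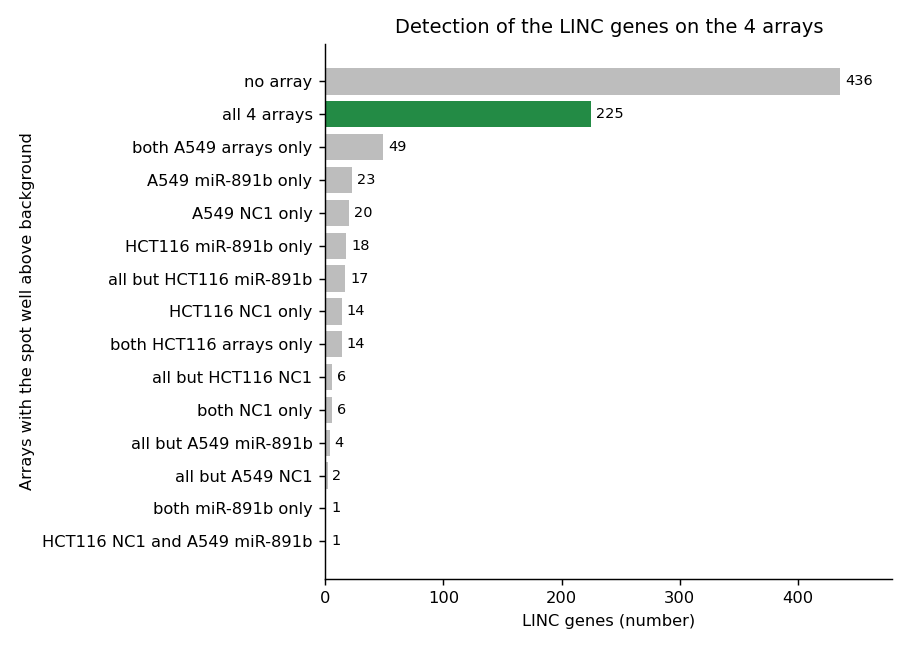
The bars give the number of LINC genes (horizontal axis) for each combination of arrays on which the spot was well above background. Of 836 genes, 225 were detected on all 4 arrays (green), 436 on none, 49 only on both A549 arrays and 14 only on both HCT116 arrays.

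The share detected on all 4 arrays was lower than for genes as a whole. It was 41.7% over all 43317 gene names on the array and 66.2% over the 18637 names matched to protein-coding genes of RefSeq. It was 16.4% over the 8765 names starting lnc-, the array design's own catalogue of noncoding transcripts. Of the 225 members, 178 were dimmer than the median detected gene. Levels are given here as log2 signal relative to the 75th percentile of gene probes on the same array. Where 4 levels are listed by line, NC1 comes first and miR-891b next. A level compares arrays at one probe, and does not rank transcripts, because probes differ in brightness.

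At the edge of the rule, the dimmest members inside it were LINC00592, with a lowest signal of 5.18 units, LINC00518 with 5.29 and LINC00029 with 5.64. The LINC genes nearest outside it by lowest signal were LINC00960, LINC01048 and LINC00417, with lowest signals of 7.55, 7.17 and 7.17. Each failed on 1 array, HCT116 miR-891b, where their signals were 7.55, 7.23 and 7.23. Both sets overlap in signal. The mark also depends on the local background and on the array, and the part of these was not tested.

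Names have moved since the array was designed. Of the 225 members, 179 keep their symbol in RefSeq, 44 have another symbol and 2 were unmatched. RefSeq lists 209 as long noncoding RNA genes, 11 as protein-coding genes and 3 as transcribed pseudogenes. The probe of LINC01000 lies on chromosome 3 in the array files while RefSeq places the gene on chromosome 7. The probe of LINC00115, a gene of chromosome 1 in RefSeq, also lies on another chromosome. The values of both may belong to a related copy. Another 3 members share 40 bases or more of probe with a differently named array feature: LINC00502, LINC00639 and LINC01311.

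The promoters of the members had more CG than those of undetected LINC genes and less than those of protein-coding genes. For 167 members with a promoter in the RefSeq table (GRCh38.p14, 250 bases before to 50 after the start), the median ratio of observed to expected CG was 0.387. It was 0.229 for 304 LINC genes detected on no array, and 0.838 for 10121 detected protein-coding genes. A ratio of 0.6 or more was found in 36.5% of the members, 16.1% of the undetected LINC genes and 81.8% of the protein-coding genes. For 39 LINC genes detected on both A549 arrays only, the median was 0.441 and 33.3% reached 0.6, close to the members. The promoters of 2 members with large line differences are shown as a pair that differs in CG, which is in capitals.
LINC01315, chr22:42369159-42369458, minus strand: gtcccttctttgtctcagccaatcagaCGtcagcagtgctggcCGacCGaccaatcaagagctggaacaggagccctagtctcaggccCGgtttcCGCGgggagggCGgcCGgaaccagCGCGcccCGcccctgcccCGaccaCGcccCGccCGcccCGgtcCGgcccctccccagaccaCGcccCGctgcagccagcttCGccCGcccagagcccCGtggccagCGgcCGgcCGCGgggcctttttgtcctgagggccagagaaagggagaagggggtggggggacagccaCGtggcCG
LINC01540, chr18:3466000-3466299, plus strand: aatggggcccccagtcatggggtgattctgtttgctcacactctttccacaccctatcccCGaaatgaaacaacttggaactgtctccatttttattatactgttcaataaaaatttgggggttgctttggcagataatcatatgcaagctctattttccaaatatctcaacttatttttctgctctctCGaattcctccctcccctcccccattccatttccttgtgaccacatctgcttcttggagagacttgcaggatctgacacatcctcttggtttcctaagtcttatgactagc
The LINC01315 window holds 28 CG pairs and the LINC01540 window holds 2. The ratio is a property of these letters, and no methylation was measured.

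The cell line labels were checked against marker genes. The HCT116 list (CDX2, EPCAM, CLDN7, CLDN3) was detected on all 4 arrays in 4 of 4 cases and differed by -6.75 to -3.13 (A549 minus HCT116, log2, NC1 arrays). In the A549 list, 4 of 6 were detected on all 4 arrays and were 2.36 to 12.17 log2 units higher in A549. On the HCT116 miR-891b array 1 marker of A549 moved: AKR1B10, an aldo-keto reductase, was 4.47 higher than on HCT116 NC1, while the other 3 that were detected on all 4 arrays (ALDH3A1, KRT81 and NQO1) lay between -0.51 and -0.28. In A549, KRT81 and ALDH3A1 of the A549 list changed by -1.64 and -1.17 with miR-891b, and CLDN3 of the HCT116 list by 1.03. The remaining markers of these lists that were detected on all 4 arrays changed by less than 2-fold in A549. Of the fibroblast list, 2 of 7 were detected on all 4 arrays, and COL1A2, COL3A1 and DCN on none. LUM, which encodes lumican, and THY1 were well above background on both A549 arrays only, with A549 levels of 1.03 (NC1) and 3.17 (miR-891b) for LUM and -1.47 and -2.51 for THY1. The part of these in the results was not tested. Of the blood list, PTPRC and CD14 were detected on all 4 arrays and CD3E on none.

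The members differed more between the lines than with miR-891b. The SD over members was 1.17 (NC1) and 1.07 (miR-891b) for the line difference, against 0.39 and 0.52 for the change in HCT116 and A549. Over all detected genes the SD was likewise larger for the line differences than for the changes. This order therefore does not set the members apart from other genes. The SD over members was below that over all detected genes, except for the change in HCT116, where it was slightly above. Differences are given as A549 minus HCT116, once on the NC1 arrays and once on the miR-891b arrays. A member was counted where both passed 2-fold in one direction. On this count 23 of 224 members were higher in A549, where the background over all detected genes was 7.62%, and 14 were higher in HCT116, where it was 11.8%. The 23 make 10.3% of the members and the 14 make 6.25%. LINC00630 was left out because its HCT116 NC1 spot carried an outlier mark. The median line difference on the NC1 arrays was 0.20 for the members and -0.10 for all detected genes. Among the 177 members dimmer than the median gene, 10.7% were higher in A549 (8.47% of all dimmer genes) and 5.08% were higher in HCT116 (11.3%).

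An additive limma fit over all genes had cell line and treatment as terms and 1 residual degree of freedom. It had no repeat of any of the groups. At a Benjamini-Hochberg adjusted p under 0.05 it called 34 members higher in A549, where it called 12.6% of all genes, and 17 higher in HCT116, where it called 20.6%. The smallest adjusted p of a member in this limma fit was 0.00076. The fit removes a treatment difference shared by both lines. Its residual is the disagreement between the line differences on the NC1 and miR-891b arrays. The limma fit moderated it towards a variance over all genes (prior degrees of freedom 4.28). The 2 arrays of a line shared a slide, so these p-values do not cover spread between repeated cultures or slides. With normexp background correction and quantile normalization, 6 members were past 2-fold higher in A549 and 5 in HCT116, and limma called 15 and 11.

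**Figure D2:**
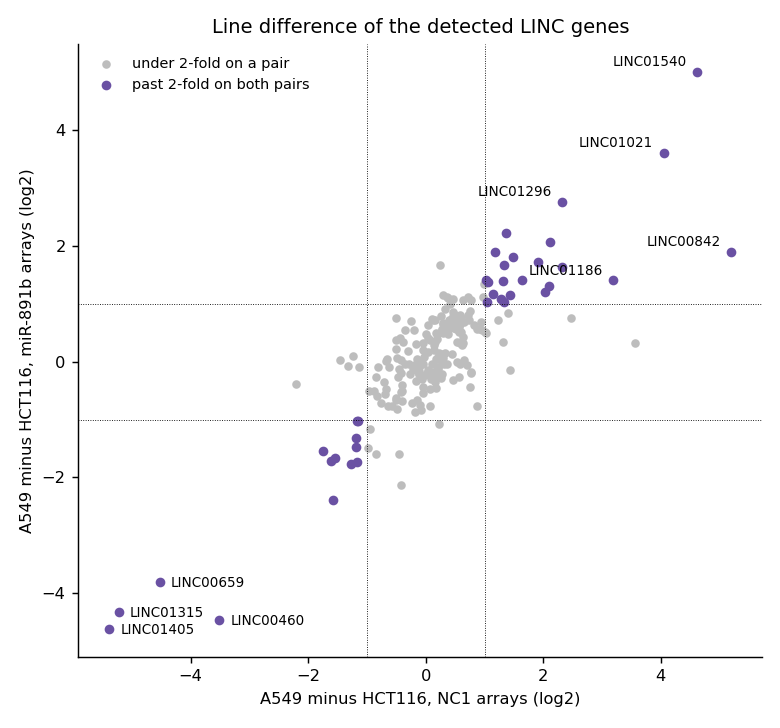
Each point is a member, placed by A549 minus HCT116 in log2 on the NC1 arrays (horizontal) and on the miR-891b arrays (vertical), with dotted lines at 2-fold. Purple points passed 2-fold on both pairs: 23 at upper right and 14 at lower left.

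Members higher in HCT116 were led by LINC01405, LINC01315, LINC00659 and LINC00460. LINC01405, now VHRT and known from heart muscle, had levels of 2.59 and 1.84 in HCT116 and -2.79 and -2.77 in A549. The HCT116 arrays lay far above the A549 arrays, by 41.7-fold on NC1 and 24.5-fold on miR-891b (limma log2 difference -5.00, SE 0.28, adjusted p = 0.00082). LINC01315 had levels of 4.44 and 4.23 in HCT116 and -0.78 and -0.09 in A549, which is 37.3-fold on NC1 and 20.0-fold on miR-891b (limma adjusted p = 0.00101).

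LINC00659, reported in colon cancer, had levels of 1.11 and 0.40 in HCT116 and -3.42 and -3.40 in A549. The line difference was 23.0-fold on NC1 and 13.9-fold on miR-891b. LINC00460, studied in several carcinomas, had levels of 1.14 and 0.82 in HCT116 and -2.38 and -3.64 in A549. The arrays of the lines did not overlap in level. At this probe the 11.4-fold difference on NC1 became 22.0-fold on miR-891b, where the A549 level was lower. That level was near the lowest one well above background on its array, -3.93. A further probe of LINC00460 gave -3.70 on NC1 and -3.56 on miR-891b, in the same direction but without the widening.

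The other members named among those higher in HCT116 were LINC01574, LINC01588, LINC01002 and LINC00511. Their differences on the NC1 arrays were -1.58, -1.62, -1.75 and -1.54, and on the miR-891b arrays -2.39, -1.72, -1.53 and -1.66. LINC00511 is widely studied as a transcript raised in tumours. The 4 were 2.90-fold to 5.25-fold higher in HCT116 on either pair.

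Members higher in A549 were led by LINC01540, LINC01021, LINC00842, LINC01296 and LINC01186. LINC01540, now GAPLINC, was first described in gastric adenocarcinoma. It had levels of -1.75 and -2.20 in HCT116 and 2.87 and 2.81 in A549. The A549 arrays lay 24.6-fold higher on NC1 and 32.2-fold higher on miR-891b (limma log2 difference 4.81, SE 0.24, adjusted p = 0.00076). LINC01021, now PURPL, is induced by p53 and limits p53 levels. It had levels of -2.12 and -1.70 in HCT116 and 1.94 and 1.91 in A549, so that it was 16.6-fold and 12.2-fold higher in A549. Its HCT116 miR-891b spot lay in an area of stray signal, as described for the miR-891b changes (10.8% of surrounding spots).

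LINC01296, now the DUXAP9 pseudogene, had levels of -0.06 and -0.14 in HCT116 and 2.26 and 2.63 in A549. It belongs to a family of near copies, so related transcripts may add to its signal. The difference was 5.00-fold on NC1 and 6.80-fold on miR-891b, and a further probe gave 1.95 and 2.84 on the log2 scale. LINC01186 had levels of -1.35 and -1.47 in HCT116 and 1.84 and -0.06 in A549. It was 9.13-fold higher in A549 on NC1 but 2.65-fold higher on miR-891b. LINC01534, the divergent transcript of the zinc finger gene ZNF567, was 2.12 and 2.07 log2 units higher in A549. LINC00294 was 2.33 and 1.64 higher, and LINC01004 was 1.91 and 1.72 higher.

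**Figure D3:**
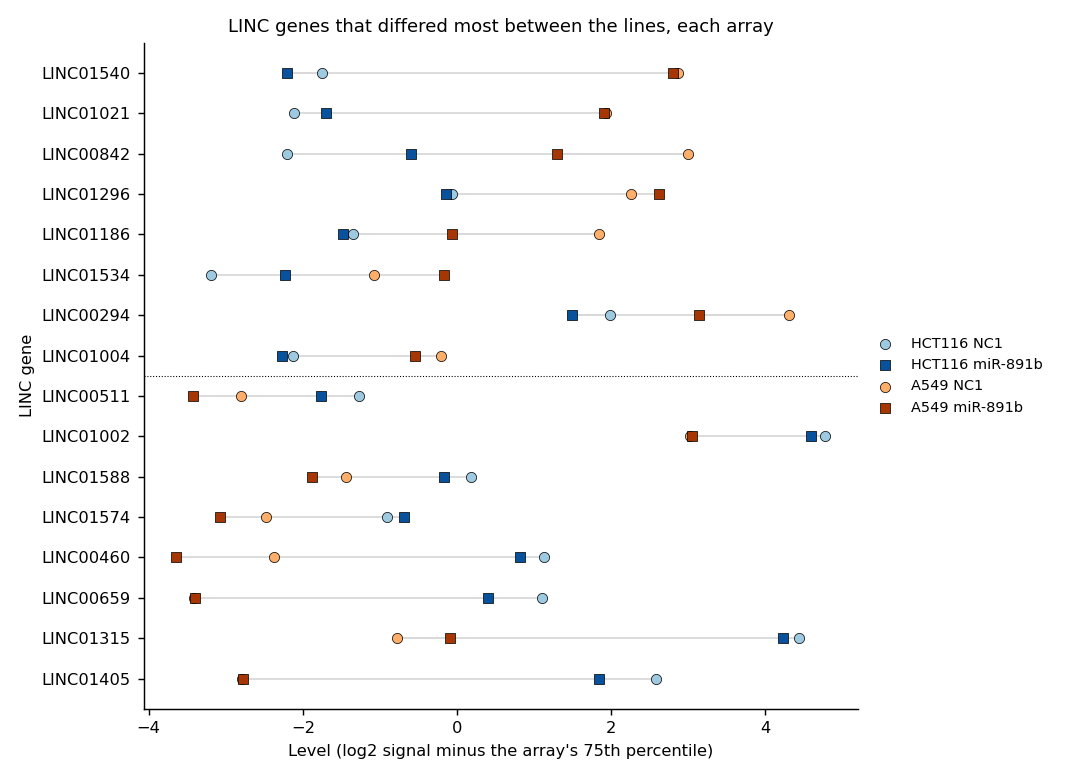
Points give the level (log2 signal relative to the array's 75th percentile) of each named member on each array, with circles for NC1 and squares for miR-891b, blue for HCT116 and orange for A549. The 8 members above the dotted line were higher in A549 and the 8 below it in HCT116, and levels are to be compared within a row only.

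LINC genes detected in only one line are not members, and their line differences can be given only as bounds. Detection in one line fixed the direction, so the bounds are a description. The bound sets the mean of the bright arrays against the mean of the dim arrays. Each dim array counts at its lowest signal that was well above background, or at the gene's own signal where that was higher. Of the 49 detected on both A549 arrays only, 25 had a bound of 2-fold or more and the rest had less. All 14 detected on both HCT116 arrays only had one. LINC00473, known as a CREB-induced transcript of lung tumours that lack LKB1, had levels of 4.47 and 3.50 in A549 and -5.82 and -5.44 in HCT116, not well above background. It was at least 160.4-fold higher in A549. LINC01193 and LINC00993 were each at least 48.5-fold higher in A549, LINC01116 at least 19.8-fold, LINC01474 at least 18.5-fold and LINC01091 at least 17.2-fold. LINC00261, a transcript of endoderm that neighbours FOXA2, was at least 14.2-fold higher in A549.

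In the other direction LINC00640 was at least 35.9-fold higher in HCT116, with levels of 1.16 and 1.29 there. LINC01338 was at least 10.7-fold higher, LINC01080 at least 7.51-fold, LINC01324 at least 6.59-fold, LINC01032 at least 5.76-fold and LINC00326 at least 5.47-fold. None of these 6 spots lay in an area of stray signal.

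The question of the transfection was which genes miR-891b moved in each line. In HCT116 the members hardly moved. The median change was -0.08 for the members and -0.04 for all detected genes. At 2-fold, 1 of 224 members was lower, where the background over all genes was 0.675%, and 2 were higher, where it was 0.952%. These shares were near the background. The error of a single difference from the spot measurements alone, as Feature Extraction gives it, had a median of 0.23 over the members in HCT116 and 0.21 in A549, which leaves out any spread between cultures.

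The lower member was LINC00685, with a level of 0.00 on HCT116 NC1 and -1.11 on HCT116 miR-891b. The higher members were LINC00842, from -2.20 to -0.59, and LINC00672, now LASP1NB, from -2.34 to -1.10. All 3 spots lay in areas of stray signal. In such an area, 10 rows and columns to each side, at least 10% of the spots dim on the remaining arrays were well above background. The share was 18.1% around LINC00685 on the NC1 array, and 10.5% around LINC00842 and 12.2% around LINC00672 on the miR-891b array. Such areas held 10.5% of gene spots on the miR-891b array of HCT116 and 2.20% on its NC1 array. On the A549 arrays they held 1.83% (miR-891b) and 0.0213% (NC1). Without the 34 members in such areas on any array, no member passed 2-fold in HCT116, and none did with normexp background correction. With quantile normalization 2 were lower and 2 higher. Other named members in such areas on the HCT116 miR-891b array were LINC01000, LINC01021, LINC00294, LINC01588, LINC00998, LINC01578, LINC00857 and LINC00665. On the NC1 array of HCT116 they were LINC01356 and LINC00493.

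In A549 more members passed 2-fold, most of them lower. The median change was -0.02 for the members and -0.07 for all detected genes. At 2-fold, 12 of 225 members were lower (5.33%), where the background was 5.82%, and 3 were higher (1.33%), where it was 3.30%. The lower count was near the background. With arrays scaled on the median of detected probes the split was 10 lower and 5 higher, and with normexp background correction and quantile normalization it was 2 and 1. Without the members in areas of stray signal it was 8 and 3. Among genes dimmer than the median, 5.62% of the members were lower against 4.75% of all genes, and 1.12% were higher against 4.45%.

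LINC00592, which lies beside a keratin gene cluster, was the member furthest below its control. Its A549 levels were 0.16 (NC1) and -2.44 (miR-891b), a difference of -2.60 (spot error 0.23) or 6.07-fold. In HCT116 it was near the detection limit, at -3.40 and -2.77, so the A549 miR-891b level came close to the HCT116 levels. LINC01186 had 1.84 and -0.06, a 3.76-fold difference, and its further probe gave -1.37 against -1.91. LINC00842 had 2.99 and 1.31, a 3.22-fold difference. LINC01433 had -0.06 and -1.74, a 3.19-fold difference.

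The remaining 8 lower members were between 1.00 and 1.27 log2 units below NC1. They were LINC00460, LINC01468, LINC00618, LINC00029, LINC00294, LINC00493, LINC01482 and LINC01515. For LINC00460 the levels were -2.38 and -3.64, and the further probe gave a change of -0.36, so its 2 probes disagree in size. For LINC00618 the levels were -0.30 and -1.54. For LINC00294 they were 4.31 and 3.14.

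The 3 higher members in A549 were LINC00342, LINC00888 and LINC01146. LINC00342 had levels of 1.09 on NC1 and 2.42 on miR-891b, a 2.52-fold difference. LINC00888, now the small nucleolar RNA host gene SNHG33, had -1.38 and -0.28, a 2.14-fold difference. LINC01146, now HISLA and described as a stabiliser of HIF-1 alpha, had -2.25 and -1.19. A further LINC01146 probe gave a change of 0.48 against 1.05, and it gave a line difference of 0.69 on NC1 against -1.33, so the probes disagree on the line.

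**Figure D4:**
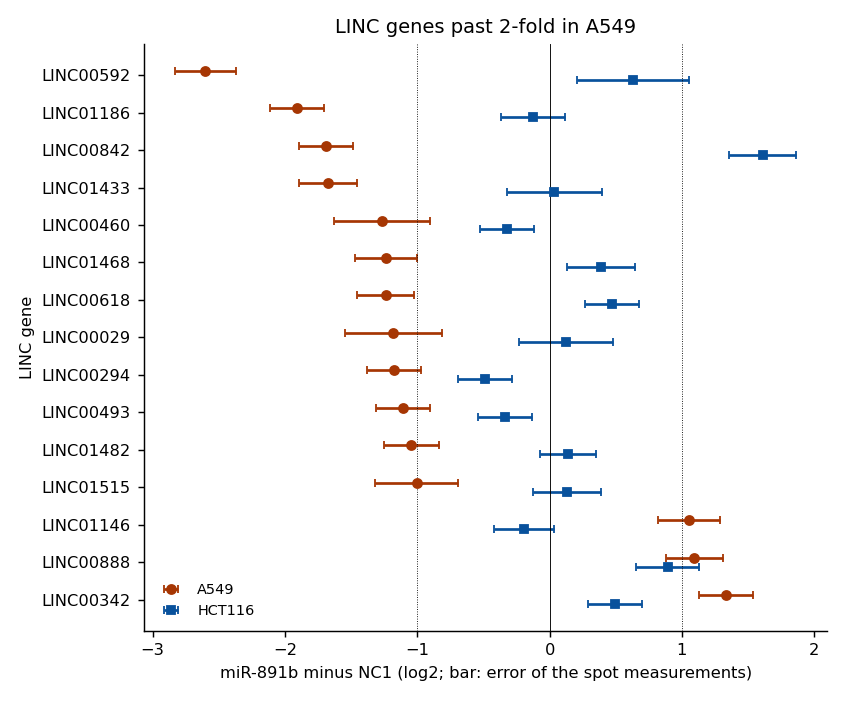
Points give miR-891b minus NC1 in log2 for the 15 members past 2-fold in A549 (circles), with the same members in HCT116 (squares), and bars give the error of the spot measurements only. In A549, 12 members lie to the left of the dotted line at -1 and 3 to the right of the line at 1.

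Few members moved alike in the lines. No member was past 2-fold lower in both lines (background 0.0886%), and none was past 2-fold higher in both (0.161%). At 1.5-fold, 3 were higher in both lines: LINC00672, LINC00888 and LINC01534. For LINC00888 the changes were 0.89 in HCT116 and 1.09 in A549, and for LINC01534 they were 0.96 and 0.91. Another 4 were lower in both at 1.5-fold: LINC01023, LINC01063, LINC01273 and LINC01547, with changes from -0.83 to -0.61. Further probes of LINC01273 and LINC01547 gave -0.10 and -0.06 in HCT116, so neither was lower in both lines on that probe. These 7 were chosen after their values were seen. Over all genes 0.902% were higher in both at 1.5-fold and 1.38% were lower, against 1.34% and 1.79% of the members.

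The limma fit called no member for miR-891b after adjustment, and no gene of the 18061 tested. At an unadjusted p under 0.05 it marked 14 of 224 members (6.25%) and 5.99% of all genes. The smallest adjusted p of a member was 0.765 in limma. The 2 lines share no array in this comparison, and across the 224 members their changes had a Pearson r of -0.01 and a Spearman rho of 0.03. Over all genes they were 0.13 and 0.13. Points of a line share both arrays and their scaling.

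LINC00842 was the only member past 2-fold in opposite directions, higher by 1.61 in HCT116 and lower by 1.69 in A549 (background 0.0831%). On the NC1 arrays it was 36.7-fold higher in A549, and on the miR-891b arrays 3.73-fold. Its neighbour in RefSeq, the annexin gene ANXA8L1, had levels of -2.37 and -1.74 in HCT116 and 4.51 and 1.68 in A549. The annexin gene was thus lower by 2.83 in A549, and higher by 0.63 in HCT116.

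**Figure D5:**
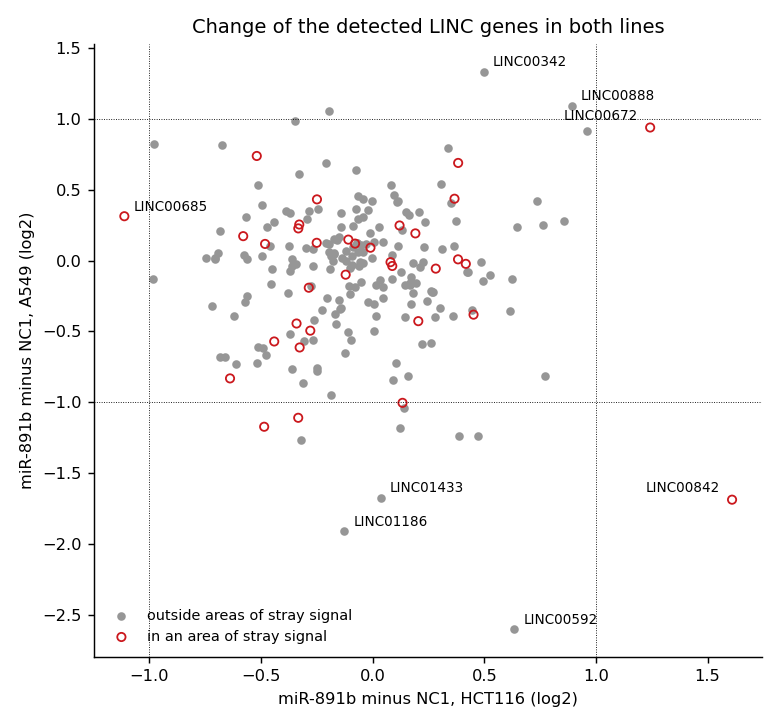
Each point is a member, placed by miR-891b minus NC1 in HCT116 (horizontal) and in A549 (vertical), both in log2, with dotted lines at 2-fold. Red open circles mark the 34 members in an area of stray signal, among them LINC00685, LINC00672 and LINC00842, the only members past 2-fold in HCT116.

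Each member was compared with the protein-coding gene that overlapped it most or lay nearest in RefSeq, with no limit on distance. Of 223 members with a neighbour, 33 overlapped it, and the rest lay beside it at any distance. For 142 members the neighbour was detected on all 4 arrays. Across these 142 pairs the line difference on NC1 had a Pearson r of 0.41 and a Spearman rho of 0.19, as a description of points that share both arrays. Among 21 members called between the lines with a detected neighbour, 2 neighbours were called in the same direction and 1 in the opposite one. Of all genes 7.62% were called higher in A549 and 11.8% in HCT116, so 2 of 21 was near the background. LINC00460 and EFNB2, which encodes ephrin-B2, were both higher in HCT116, EFNB2 with a line difference of -4.16 on NC1 and -4.18 on miR-891b. LINC00842 and ANXA8L1 were both higher in A549. LINC00518 was higher in HCT116 by 2.25-fold on NC1 while TFAP2A, a transcription factor gene, was higher in A549 by 1.17 log2 units.

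In A549, 10 of the 12 lower members had a detected neighbour, and 4 of these neighbours were also past 2-fold lower. They were KRT7 beside LINC00592, ANXA8L1 beside LINC00842, VRK1 beside LINC00618 and TCP11L1 beside LINC00294, a set chosen after the values were seen. KRT7, a keratin of simple epithelia, was lower by 1.62, VRK1, a nuclear kinase, by 1.43 and TCP11L1 by 1.23. Among the members under 2-fold in A549, 6 of 126 detected neighbours were lower (4.76%), and the share over all genes was 5.82%. Across all 142 pairs the A549 changes of member and neighbour had a Pearson r of 0.22 and a Spearman rho of 0.07, so they were nearly unrelated in rank. The reason for this was not tested.

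LINC genes now known to encode small proteins were followed as a picked list, with 4 of 7 detected on all 4 arrays and so members. The list does not hold all 11 members that RefSeq gives as protein-coding. LINC00493 (SMIM26, a mitochondrial microprotein) had levels of 6.51 and 6.18 in HCT116 and 6.98 and 5.87 in A549, and was the only one of the 4 past 2-fold with miR-891b. LINC00116 (MTLN, mitoregulin) had 5.03 and 5.12 in HCT116 and 5.80 and 4.95 in A549. LINC01420 (NBDY, which binds the decapping machinery of P-bodies) hardly differed, at 5.76 and 5.64 in HCT116 and 5.59 and 5.59 in A549. LINC00998 (SMIM30) had 3.89 and 3.57 in HCT116 and 2.70 and 2.09 in A549, so it was higher in HCT116 on both pairs, by 2.29-fold and 2.79-fold. LINC00961, LINC00948 and LINC00675 were not well above background on any array. The median change of the 4 detected was -0.22 in HCT116 and -0.73 in A549, against -0.04 and -0.07 over all detected genes.

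Of 22 long noncoding RNAs listed for published functions, 21 were on the array under the listed name and 15 were detected on all 4 arrays. Between the lines 3 of the 15 were higher in A549 (7.62% of all genes) and 2 in HCT116 (11.8%). With miR-891b 1 of 15 was past 2-fold lower in A549 (LINC00460), near the 5.82% of all genes. The list's median change was 0.01 in HCT116 and -0.29 in A549, against -0.04 and -0.07 over all detected genes. LINC00152 (CYTOR, raised in many carcinomas) had levels of 2.37 and 2.48 in HCT116 and 4.40 and 3.68 in A549, 4.07-fold and 2.30-fold higher in A549. LINC01133 was 4.28-fold and 2.47-fold higher in A549.

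LINC00657 (NORAD, a cytoplasmic RNA that binds Pumilio proteins) had levels of 0.77 and 1.01 in HCT116 and 1.80 and 1.52 in A549. It passed 2-fold on the NC1 pair only, at 2.05-fold. LINC01578 (CHASERR, which restrains its neighbour CHD2) had 0.44 and -0.04 in HCT116 and 0.85 and 0.96 in A549. LINC00673 was nearly level, at 3.30, 3.31, 3.19 and 3.32 over the same order of arrays, and its 3 further probes differed from NC1 by -0.24 to -0.03 in A549. LINC00941 had 2.32 and 2.49 in HCT116 and 2.56 and 2.26 in A549. Its 3 further probes gave changes of -1.21, -0.79 and -0.19 in A549 against -0.30. In the same order they gave line differences on the miR-891b arrays of -1.59, -1.58 and 0.12 against -0.24, so the probes of LINC00941 disagree. LINC00467 was lower by 0.95 in A549, and LINC00665 was higher by 0.69 there. Further probes of LINC00665 gave changes of 0.06 and 0.67 in A549, so its probes disagree in size.

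The members with the highest levels were LINC01356, LINC00493, LINC00504, LINC00869, LINC01420, LINC01001, LINC00116, LINC01122, LINC01088 and LINC01000. None of these 10 was called between the lines, and LINC00493 alone was past 2-fold in either treatment pair. Over all detected genes 7.62% were called higher in A549 and 11.8% in HCT116. With miR-891b 5.82% were lower and 3.30% higher in A549, so 10 genes are too few to be set apart from these shares. LINC01356, beside the lactate transporter gene SLC16A1, had levels of 8.43 and 8.51 in HCT116 and 8.02 and 8.01 in A549. LINC00504 had 5.00 and 5.65 in HCT116 and 5.96 and 6.20 in A549.

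Genes of the nuclear exosome, its adaptors and RNA decay enzymes were read for context, and 24 of 24 were detected on all 4 arrays. In HCT116 none was past 2-fold with miR-891b. In A549 EXOSC8 and EXOSC9, core subunits of the exosome, had changes of -1.54 and -1.10, and none was past 2-fold higher. These 2 of 24 were near the 5.82% of all genes that were lower. Between the lines EXOSC4, EXOSC9 and MPHOSPH6 were higher in HCT116 on both pairs, and 3 of 24 was near the 11.8% of all genes. The list's median change was 0.02 in HCT116 and -0.22 in A549, against -0.04 and -0.07 over all detected genes.

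Another detected probe was present for 55 members, 87 probes in all. The line difference on NC1 had the same sign in 57 of the 87, and the change in A549 in 55. For the 11 members called between the lines that had such probes, 6 of 14 further probes passed 2-fold the same way on both pairs. Many of these probes are dimmer or read another part of the transcript.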

How the data were processed

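RNA from 4 transfected cultures (HCT116 and A549, each with NC1 or miR-891b) was measured on 1 Agilent 1-colour array each. Per the file headers, the intensity values deposited by the authors are Feature Extraction signals, background-subtracted and detrended within each array; the submitters' processing notes name version 11.5.1.1. The authors' deposited value table is log2 with no stated scale. Set against the scanner values, it differed from the setting used here by a median of 0.0069 or less per array, and its column medians were -3.80, -3.60, -3.71 and -3.68.

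Levels are log2 processed signal, without outlier spots, minus each array's 75th percentile over gene probes. No gene spot was saturated. Calls within a line are by size (2-fold); the additive fit used limma 3.58.1 in R 4.3.3, with Benjamini-Hochberg adjustment over all genes detected on all 4 arrays, tested on simulated data. Bounds and levels rest on 1 spot per probe, and precision is limited by the 4 arrays.

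Members and lists were chosen with earlier results of these data known. Named genes were the 10 with the highest levels, the 8 largest line differences each way, the 8 largest changes each way in each line among those past 2-fold, opposite or shared calls, list genes, the 6 largest bounds each way, the 3 nearest to the detection rule on each side, and detected neighbours of these. Alternatives were quantile normalization, alone or after normexp correction with an offset of 50, scaling on the median, the authors' table, averaging of probes, other filters and other thresholds. Symbols and neighbours came from RefSeq (GRCh38.p14), whose coordinates were used for promoters and for the choice of neighbours.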

Additional observations from a re-analysis of the deposited data

Results flagged for a closer look

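LINC00842 changed past 2-fold in opposite directions in the lines, by 1.61 and -1.69 on the log2 scale in HCT116 and A549. With 1 array per group, this difference could not be tested. Its HCT116 miR-891b spot lay where 10.5% of nearby spots dim on the other arrays were lit, and no other probe of the gene was detected on all 4 arrays.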

How the results depend on the processing

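Of 171 counts and medians recomputed under the alternatives, 120 stayed within 1.5 times the value given or within the spot error. With normexp background correction and quantile normalization, which compress dim signals, HCT116 had 0 lower and 0 higher members, A549 2 and 1, opposite calls fell to 0, line calls were 6 higher in A549 and 5 in HCT116, and the limma fit called 15 and 11. Quantile normalization and the authors' table each gave 2 lower in HCT116, with 2 higher. Median scaling gave 5 higher in A549 and 1 higher in both lines; it moved the median line difference of all genes from -0.10 to -0.02. Averaging detected probes gave 4 higher in HCT116, and detection in the line compared only gave 8 higher in A549. Without a filter on dim probes, 836 genes entered, with 33 lower and 76 higher in HCT116 (median 0.33), 66 and 53 in A549, 3 lower in both, 8 higher in both, 13 opposite, 72 higher in A549 and 54 in HCT116 on both pairs (NC1 median -0.40), and limma calls of 80 and 95. At 1.5-fold the counts were 15 and 12 in HCT116, 32 and 14 in A549, 4, 3 and 5 for lower, higher and opposite, and 40 higher in A549 on both pairs. At 3-fold they were 0 and 1, 4 and 0, and 7 and 5 between the lines. Members still named LINC in RefSeq gave 1 higher in HCT116 and 1 in A549. Leaving out probes in areas of stray signal, or, chosen after seeing the data, the members in them, gave 0 lower, 0 higher and 0 opposite calls in HCT116.

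Of the values of named members, 66 were followed. None of these reversed its sign in 517 recomputed values, and 44 fell under 2-fold, 36 of them with normexp. The others were LINC00493 (-0.81 in A549) and LINC00518 with quantile normalization, LINC00460 (-0.81) and LINC01146 (0.77, and -0.32 between the lines) with probes averaged, LINC00672 (0.53 in HCT116) without stray areas, and LINC00029 and LINC00518 with median scaling. The additive limma fit pairs NC1 with miR-891b within each line and called no member for miR-891b (smallest adjusted p = 0.765). The 66 do not stand for small values, whose sign can differ between probes. LINC00673 changed by 0.13 in A549, and its further probes gave -0.24 to -0.03. With 1 array per group, no replicate could be left out. Dim spots limit the detection counts.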
